A study of Mus musculus with 6 samples.

Results

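Receptors for interleukins and interferon-γ are built from chains that are encoded by separate genes, and 10 such chains were followed here in primary mouse bone-marrow-derived macrophages (BMDMs). They were chosen by name, as the genes *Il4ra*, *Il13ra1*, *Il2ra*, *Il2rg*, *Il6ra*, *Il6st*, *Il17ra*, *Il17rd*, *Ifngr1* and *Ifngr2*, and are 10 of the 54532 genes listed. The 6 RNA-seq libraries fall into 3 groups of 2, all from BMDMs of wild-type C57BL/6 mice, which are macrophages grown in culture from bone marrow. One group was left untreated. The second received LPS, a lipid-linked sugar polymer on the surface of Gram-negative bacteria that TLR4 senses, at 100 ng/ml for 2 h. The third received metformin, an antidiabetic drug that inhibits complex I of the respiratory chain, at 5 mM for 6 h before the same LPS stimulation (Met + LPS). No group received metformin alone, so that an effect of the drug on resting cells cannot be told apart from an effect on the LPS response. The cells had been differentiated in medium conditioned by L929 cells and were seeded in duplicate. Nothing in the labels says that the duplicates came from separate mice, so p-values measure the spread between these libraries only, which may be technical.

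Type I cytokine receptors have no enzyme activity of their own. Binding of a ligand brings chains together, the Janus kinases bound to them become active, and these phosphorylate STAT proteins that enter the nucleus. The chains are shared between receptors, as IL-4Rα pairs with the common γ chain to bind IL-4 and with IL-13Rα1 to bind IL-4 or IL-13, while gp130 serves IL-6 and its relatives. The IFN-γ receptor, made of IFNGR1 and IFNGR2, also works through Janus kinases, whereas IL-17 receptors recruit the adaptor Act1. In macrophages, IL-4 and IL-13 are known for alternative activation, and IFN-γ for priming the response to bacteria.

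Values are TPM, reads per length of gene scaled to a common total in every library, so that levels of different genes can be compared per length. Reads recovered from TPM and exon length came to between 25457016 and 30762754 per library. All 8 macrophage markers were present, and their summed level was 44600 to 46600 TPM in the untreated, 37400 to 37900 TPM in the LPS and 30900 TPM in both Met + LPS libraries. Most of that sum was *Lyz2*, at 33980 and 35840, 26970 and 26700, and 21200 and 21380 TPM. The markers did not move as a set with LPS. *Cd14* rose from 911.2 and 998.2 to 2639 and 2886 TPM and *Adgre1* from 1510 and 1575 to 1750 and 1684 TPM, *Fcgr1* overlapped, and the others were lower. In Met + LPS compared with LPS, all macrophage markers but *Cd68*, which overlapped, were lower. *Fcgr1* went from 153.1 and 177.2 to 74.91 and 73.84 TPM there. Of the T cell markers, *Cd3g* was at 0 in all libraries, and *Cd3d* and *Cd3e* were at 0 in all but 1 untreated library. *Cd4* and *Lck* reached 1 TPM in 2 or more libraries. Markers of fibroblasts and natural killer cells stayed under 1 TPM, and the summed level of 7 neutrophil markers was 29.9 to 32.6, 26.5 to 28.0 and 43.4 to 45.5 TPM in the untreated, LPS and Met + LPS libraries. The part of these shifts in the results was not tested. In such bulk samples fewer cells of a type and less RNA per cell cannot be told apart.

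After LPS, 7 of the 10 chains rose and 2 fell, at an adjusted p under 0.01 in limma on log2(TPM + 1), and *Ifngr2* did not pass the test. Of all 12755 genes tested, 16.2% rose and 60.1% fell. The median log2 change was 1.07 over the chains and -0.48 over all tested genes, so that changes against untreated cells are also given relative to that median where it matters. On the log2(TPM + 1) scale none of the 10 chains passed the cut-offs of the study for LPS, although *Il4ra* came to 1.99. These are a log2 fold change of at least 2 in either direction at the same adjusted p, which 6.08% of all tested genes passed. The study set them on fold changes from DESeq2, whereas the added 1 here shrinks changes of low genes. By the ratio of mean TPM the increase was 4.05-fold for *Il4ra*, 19.0-fold for *Il17rd* and 43.0-fold for *Il2ra*. At an unadjusted p under 0.05 the same 9 chains passed, and limma voom on the recovered reads put 3 chains past the cut-offs. The libraries of the 2 groups did not overlap for any of the 10 chains, nor for 91.6% of all tested genes.

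In Met + LPS compared with LPS, 2 chains rose (*Il6st* and *Il17ra*), 6 fell (*Il4ra*, *Il2ra*, *Il2rg*, *Il6ra*, *Il17rd* and *Ifngr2*) and 2 did not pass the test (*Il13ra1* and *Ifngr1*). Among all tested genes 14.5% rose and 18.0% fell. The median was -0.38 over the chains and -0.03 over all tested genes. The cut-off for this comparison, a log2 fold change of at least 0.7, was passed by *Il4ra*, *Il2ra* and *Il17rd*, all lower, against 4.09% of all tested genes that were lower. The number of chains that fell was 3 when LPS library 1, LPS library 2 or Met + LPS library 2 was left out, and the number past the cut-off was 1 without LPS library 1, LPS library 2 or Met + LPS library 1. The groups did not overlap for 9 of the 10 chains and for 73.8% of all tested genes. This comparison and the first share the LPS libraries, so that their values are given side by side for each chain.

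**Figure D1:**
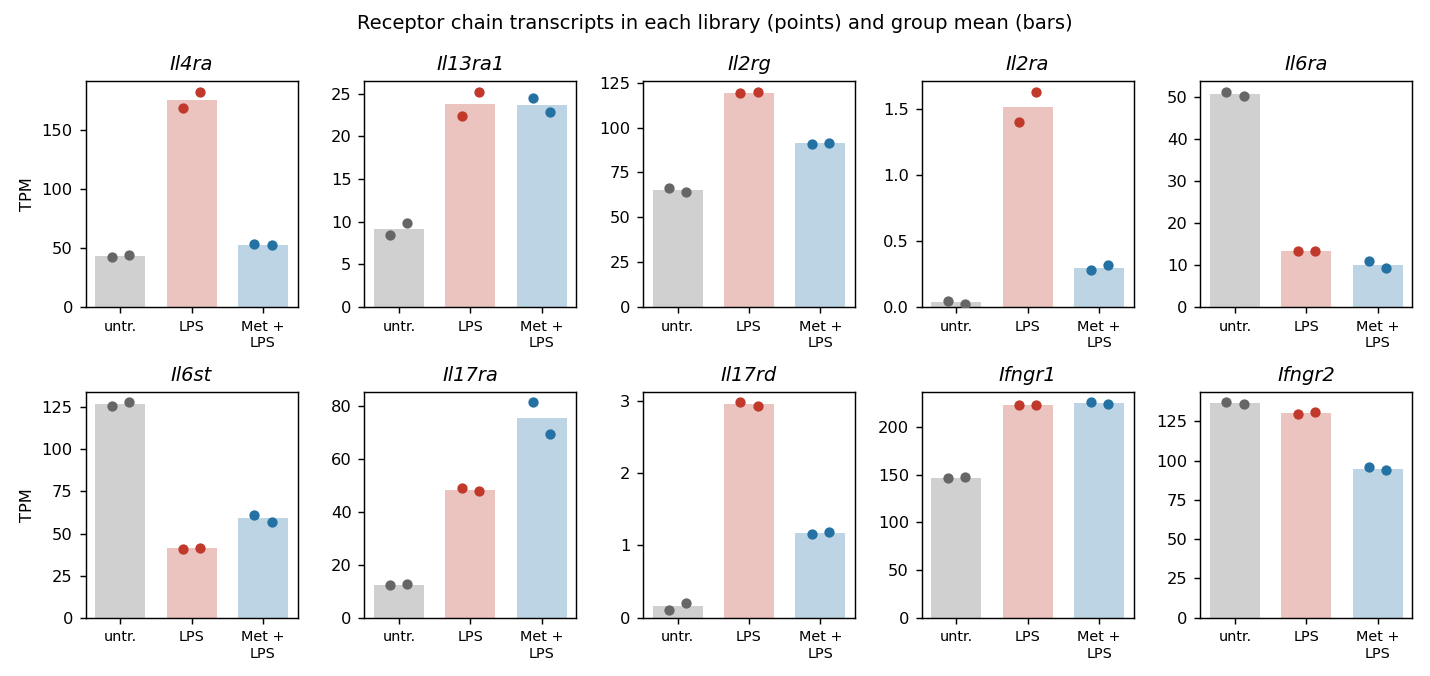
TPM of the 10 receptor chains in each of the 6 libraries, with a panel and a linear axis from 0 for each chain, 2 points per group and a bar for their mean. *Il4ra* stands at 168.3 and 182.1 TPM in the LPS libraries and between 42.66 and 53.43 TPM in the other 4, whereas *Il2ra* and *Il17rd* are the chains of lowest level in all groups.

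The IL-4 receptor chain *Il4ra* (ENSMUSG00000030748, chromosome 7, 125552120 to 125579474 in GRCm38) had the lowest log2 fold change of the chains between Met + LPS and LPS on the log2(TPM + 1) scale, whereas by the ratio of TPM *Il2ra* was lower. It stood at 42.66 and 43.89 TPM in untreated cells, at 168.3 and 182.1 TPM after LPS, and at 53.43 and 52.07 TPM in Met + LPS. In TPM the Met + LPS libraries thus lay close above the untreated ones, and no groups overlapped. The mean rose 4.05-fold with LPS, with means of 43.3 ± 0.865 and 175 ± 9.73 TPM (SD, n = 2 per group) and a log2 difference of 1.99 (95% interval 1.88 to 2.11, limma adjusted p = 1.53e-07). In Met + LPS it was 52.8 ± 0.959 TPM (SD, n = 2), 3.32-fold lower than with LPS alone (log2 fold change -1.71, interval -1.83 to -1.60, limma adjusted p = 6.09e-06). Ordered from the lowest log2 fold change of that comparison, *Il4ra* had rank 31 of the 12755 genes tested. Against untreated cells *Il4ra* was still 1.22-fold higher in TPM (log2 fold change 0.28, interval 0.17 to 0.39, limma adjusted p = 0.00134). That call was lost without either untreated library or without Met + LPS library 1, with log2 fold changes of 0.26 to 0.30. The size of this difference depends on the scaling. It was 0.76 relative to the median of all tested genes, and 0.81 (limma adjusted p = 1.22e-05) when libraries were rescaled by the median ratio over genes.

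*Il13ra1*, which encodes the chain that pairs with IL-4Rα in the type II receptor (ENSMUSG00000017057, chromosome X, 36112110 to 36171259), rose with LPS without a detectable difference in Met + LPS. Its level was 8.397 and 9.852 TPM in untreated cells, 22.37 and 25.21 TPM after LPS, and 24.45 and 22.86 TPM in Met + LPS. Both stimulated groups overlapped and lay above the untreated libraries. LPS raised it 2.61-fold (log2 fold change 1.29, interval 1.07 to 1.51, limma adjusted p = 1.77e-05). The log2 difference between Met + LPS and LPS was -0.01, with an interval of -0.23 to 0.21 and an adjusted p of 0.964, and its sign turned with another scaling. The ratio of *Il4ra* to *Il13ra1* was 5.08 and 4.45 in untreated, 7.53 and 7.22 in LPS, and 2.19 and 2.28 in Met + LPS libraries. *Il4ra* was thus the more abundant of the pair per length in every library, by the least in Met + LPS.

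The 300 bases around the RefSeq start sites (GRCm38.p6, 250 before and 50 after the start) of the 3 chains past the cut-off in Met + LPS vs. LPS are shown because these chains moved together, up with LPS and down with metformin. RefSeq windows were matched for 9 of the 10 chains, with *Il17ra* the one without an entry. Capitals mark matches to the 10-letter NF-κB consensus, searched on both strands, which 8.46% of the 32851 mouse promoters of the same length hold. All 3 lie on the plus strand, at chr7:125552021-125552320, chr2:11642542-11642841 and chr14:27038751-27039050.
Il4ra: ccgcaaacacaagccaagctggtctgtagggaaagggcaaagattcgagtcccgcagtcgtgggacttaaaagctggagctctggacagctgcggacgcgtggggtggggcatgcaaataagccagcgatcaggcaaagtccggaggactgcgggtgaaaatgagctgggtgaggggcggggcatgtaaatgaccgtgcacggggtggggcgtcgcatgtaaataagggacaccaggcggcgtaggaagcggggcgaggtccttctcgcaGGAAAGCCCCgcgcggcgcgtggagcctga
Il2ra: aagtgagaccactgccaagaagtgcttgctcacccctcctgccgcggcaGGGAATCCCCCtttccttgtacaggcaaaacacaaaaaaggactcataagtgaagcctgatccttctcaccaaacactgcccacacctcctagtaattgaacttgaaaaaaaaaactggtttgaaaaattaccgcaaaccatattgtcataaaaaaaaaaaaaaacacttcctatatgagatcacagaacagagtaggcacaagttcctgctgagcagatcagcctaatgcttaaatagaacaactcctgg
Il17rd: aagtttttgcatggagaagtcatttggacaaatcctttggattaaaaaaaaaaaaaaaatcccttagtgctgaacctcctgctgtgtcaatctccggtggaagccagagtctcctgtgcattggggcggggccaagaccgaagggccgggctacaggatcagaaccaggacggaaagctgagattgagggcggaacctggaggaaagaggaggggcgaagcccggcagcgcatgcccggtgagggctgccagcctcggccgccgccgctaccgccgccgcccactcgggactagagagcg
The match of *Il4ra* begins at base 21 after the start. *Il2ra* has 2 overlapping matches, which begin 201 and 200 bases before the start, and *Il17rd* has none. None of these 3 windows held a GAS (TTCNNNGAA, in 8.3% of promoters), a STAT6 site (6.95%), an AP-1 site (TGANTCA, 7.81%), a CRE (TGACGTCA, 1.79%), a composite C/EBP-ATF site (TGATGNAA, 3.97%) or an ISRE core (3.44%), each searched on both strands. Of the other 6 windows only that of *Ifngr2* held any of the 7 motifs, an NF-κB match that begins 75 and a STAT6 site that begins 91 bases before its start. A match describes the letters of a window and not the binding of a factor.

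*Il2rg*, the common γ chain shared by the receptors for IL-2, IL-4, IL-7, IL-9, IL-15 and IL-21 (ENSMUSG00000031304, chromosome X, 101264378 to 101268255), moved in the same directions as *Il4ra* but by less. It stood at 66.17 and 64.09 TPM in untreated, 119.0 and 119.9 TPM in LPS, and 90.78 and 91.45 TPM in Met + LPS libraries. The Met + LPS libraries lay between the other groups. The increase with LPS was 1.83-fold (log2 fold change 0.87, interval 0.78 to 0.95, limma adjusted p = 1.44e-06), and the level in Met + LPS was 23.7% lower than in LPS (log2 fold change -0.39, interval -0.47 to -0.30, limma adjusted p = 0.000231). *Il4ra* exceeded *Il2rg* per length only in the LPS libraries, where the ratio of the 2 levels was 1.41 and 1.52. It was 0.645 and 0.685 in untreated and 0.589 and 0.569 in Met + LPS libraries. Of the 31-base stretches of *Il2rg*, 71.3% occur in no other gene, because a second gene model covers part of its exons. That model, on the same strand, shares 728 of the 2387 exon bases of *Il2rg* and was at 0 TPM in all 6 libraries. How reads in shared bases were assigned is not given. The 0 therefore does not show whether such reads were counted for *Il2rg* or for neither gene. The level of *Il2rg* may be understated, and its ratio to *Il4ra* carries that limit.

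*Il2ra*, the IL-2 receptor α chain CD25 (ENSMUSG00000026770, chromosome 2, 11642807 to 11693193), was nearly absent from untreated cells. It had 2 and 1 reads in the untreated, 61 and 68 reads in the LPS, and 12 and 16 reads in the Met + LPS libraries. In TPM these are 0.04606 and 0.02444, then 1.403 and 1.632, then 0.278 and 0.3165. The read level was 42.6 times as high with LPS as without (95% counting interval 14.3 to 209) and 5.07 times as high with LPS as with Met + LPS (3.35 to 7.93). These intervals cover counting error only. On the log2(TPM + 1) scale, which understates changes of low genes, the change with LPS was 1.28 (interval 0.91 to 1.65, limma adjusted p = 0.000235) and that in Met + LPS vs. LPS was -0.96 (interval -1.33 to -0.58, limma adjusted p = 0.00281). *Il2ra* reached 1 TPM in the LPS libraries only, so that it entered the test through the group where it was high. The call in Met + LPS vs. LPS was lost with a pseudocount of 0.1 (adjusted p = 0.0123) and without any 1 of the 4 LPS and Met + LPS libraries (adjusted p of 0.013 to 0.0214). Of the 8 T cell markers 2 reached 1 TPM, and their summed level was 7.04 to 7.84 TPM in untreated, 16.5 to 17.3 TPM in LPS and 8.54 to 10.2 TPM in Met + LPS libraries. The 2 markers went in different directions with LPS. *Lck*, which encodes a Src family kinase, stood at 0.898 and 0.8102 TPM in untreated, 12.33 and 11.93 TPM in LPS, and 5.917 and 5.285 TPM in Met + LPS libraries. *Cd4* fell, at 6.785 and 6.232, 4.301 and 3.772, and 3.576 and 2.662 TPM in the same order. *Cd247* rose with LPS but stayed under 1 TPM, while the CD3 genes stayed at or near 0. The part of these markers in the level of *Il2ra* was not tested.

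The IL-6 receptor chains were the 2 that fell with LPS. *Il6ra*, which encodes the ligand-binding chain (ENSMUSG00000027947, chromosome 3, 89864059 to 89913196), stood at 51.15 and 50.23 TPM in untreated, 13.32 and 13.29 TPM in LPS, and 10.9 and 9.283 TPM in Met + LPS libraries. It was thus lower in all 4 stimulated libraries, and lowest in Met + LPS. It fell by 73.8% with LPS (log2 fold change -1.85, interval -2.03 to -1.68, limma adjusted p = 1.49e-06), or by 1.37 on the log2 scale relative to the median of all tested genes. In Met + LPS it was 24.1% lower again (log2 fold change -0.37, interval -0.55 to -0.19, limma adjusted p = 0.00674). This second call did not hold with no filter, in a fit of the compared groups only, with eBayes without a trend, or without any library other than Met + LPS library 1, where adjusted p was 0.0148 to 0.0348. The TPM values do not separate the membrane-bound form from soluble forms of a chain.

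*Il6st*, which encodes the signalling chain gp130 (ENSMUSG00000021756, chromosome 13, 112464070 to 112510086), fell with LPS as well, but was higher in Met + LPS than in LPS. Its level was 125.5 and 127.8 TPM in untreated, 41.03 and 41.47 TPM in LPS, and 61.26 and 56.61 TPM in Met + LPS libraries. All 3 groups were separate, with Met + LPS between the others. With LPS the mean fell by 67.4% (log2 fold change -1.59, interval -1.71 to -1.48, limma adjusted p = 3.42e-07). The mean in Met + LPS was 42.9% above that in LPS (log2 fold change 0.50, interval 0.39 to 0.61, limma adjusted p = 0.000265) and 2.15-fold below that of untreated cells. Relative to the median of all tested genes, the log2 change of *Il6st* was -1.11 with LPS and -0.61 in Met + LPS vs. untreated. The opposite directions of the pair in Met + LPS show in their ratio. *Il6st* was 2.45 and 2.54 times as abundant as *Il6ra* in untreated, 3.08 and 3.12 times in LPS, and 5.62 and 6.1 times in Met + LPS libraries.

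**Figure D2:**
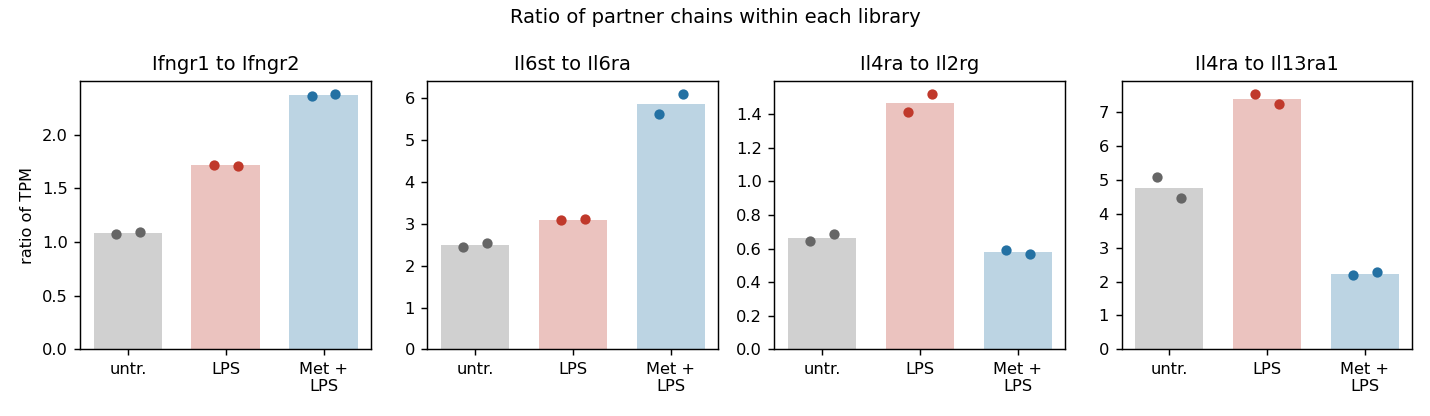
Ratio of the TPM values of 2 chains of the same receptor in each of the 6 libraries, with a panel for each pair and 2 points per group over a bar for their mean. The ratios of *Ifngr1* to *Ifngr2* and of *Il6st* to *Il6ra* are lowest in untreated and highest in Met + LPS libraries, whereas *Il4ra* to *Il2rg* and *Il4ra* to *Il13ra1* are highest in LPS libraries.

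*Il17ra*, the chain common to the receptors for the IL-17 family (ENSMUSG00000002897, chromosome 6, 120463247 to 120487559), was the only chain that rose in both steps. It stood at 12.21 and 12.59 TPM in untreated, 48.73 and 47.74 TPM in LPS, and 81.14 and 69.32 TPM in Met + LPS libraries. The groups were separate, and the spread was widest between the 2 Met + LPS libraries. LPS raised it 3.89-fold (log2 fold change 1.88, interval 1.70 to 2.06, limma adjusted p = 1.44e-06), and Met + LPS was 1.56-fold above LPS (log2 fold change 0.63, interval 0.45 to 0.81, limma adjusted p = 0.000773). Against untreated cells the mean was 6.07-fold higher, with means of 12.4 ± 0.268 and 75.2 ± 8.36 TPM (SD, n = 2 per group).

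*Il17rd*, known as SEF, a chain of the IL-17 receptor family that also dampens fibroblast growth factor signalling (ENSMUSG00000040717, chromosome 14, 27038941 to 27107286), went the other way in Met + LPS. It had 9 and 16 reads in untreated, 249 and 235 reads in LPS, and 96 and 115 reads in Met + LPS libraries, which correspond to 0.1078 and 0.2033, 2.978 and 2.931, and 1.156 and 1.183 TPM. Met + LPS lay between the other groups, and the untreated libraries did not reach 1 TPM. Its read level was 19.2 times as high with LPS as without (counting interval 12.8 to 29.9) and 2.52 times as high with LPS as with Met + LPS (2.14 to 2.98). On the log2(TPM + 1) scale the changes were 1.78 (interval 1.47 to 2.08, limma adjusted p = 1.88e-05) and -0.87 (interval -1.17 to -0.56, limma adjusted p = 0.00182). The latter call was lost with a pseudocount of 0.1 (adjusted p = 0.0126) and without any 1 of the LPS and Met + LPS libraries (adjusted p of 0.012 to 0.0139). The ratio of *Il17ra* to *Il17rd* was 113 and 61.9 in untreated, 16.4 and 16.3 in LPS, and 70.2 and 58.6 in Met + LPS libraries, so that the untreated libraries spread widely and overlapped those of Met + LPS.

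Of the 10 chains, those of the IFN-γ receptor were the most abundant per length in untreated and Met + LPS cells. *Ifngr1*, the ligand-binding chain (ENSMUSG00000020009, chromosome 10, 19591949 to 19610229), stood at 146.2 and 147.8 TPM in untreated, 222.9 and 223.0 TPM in LPS, and 225.9 and 224.1 TPM in Met + LPS libraries. The 4 stimulated libraries were nearly equal, although those of Met + LPS were both above those of LPS. LPS raised it 1.52-fold (log2 fold change 0.60, interval 0.53 to 0.67, limma adjusted p = 3.56e-06). Met + LPS differed from LPS by 0.01 on the log2 scale, with an interval of -0.06 to 0.08 and a limma adjusted p of 0.739, so that a change beyond that interval was not seen.

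*Ifngr2*, the signalling chain (ENSMUSG00000022965, chromosome 16, 91547072 to 91565623), had the reverse pattern. Its level was 137.0 and 136.2 TPM in untreated, 129.7 and 130.7 TPM in LPS, and 95.66 and 94.21 TPM in Met + LPS libraries. The untreated and LPS libraries were close, and the Met + LPS libraries lay below both. With LPS its log2 change was -0.07 (interval -0.14 to 0.01, limma adjusted p = 0.0753), and this turned to 0.45 with an adjusted p of 2.29e-05 when libraries were rescaled by the median ratio over genes. It fell by 27.1% in Met + LPS compared with LPS (log2 fold change -0.45, interval -0.53 to -0.38, limma adjusted p = 8.67e-05), and that call held under the rescaling, at -0.44. Against untreated cells its log2 difference was -0.52 before and 0.02 after the rescaling, so that this direction was lost. The ratio of *Ifngr1* to *Ifngr2*, which no rescaling of libraries can alter, was 1.07 and 1.09 in untreated, 1.72 and 1.71 in LPS, and 2.36 and 2.38 in Met + LPS libraries. The ratios are given as values and were not tested.

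**Figure D3:**
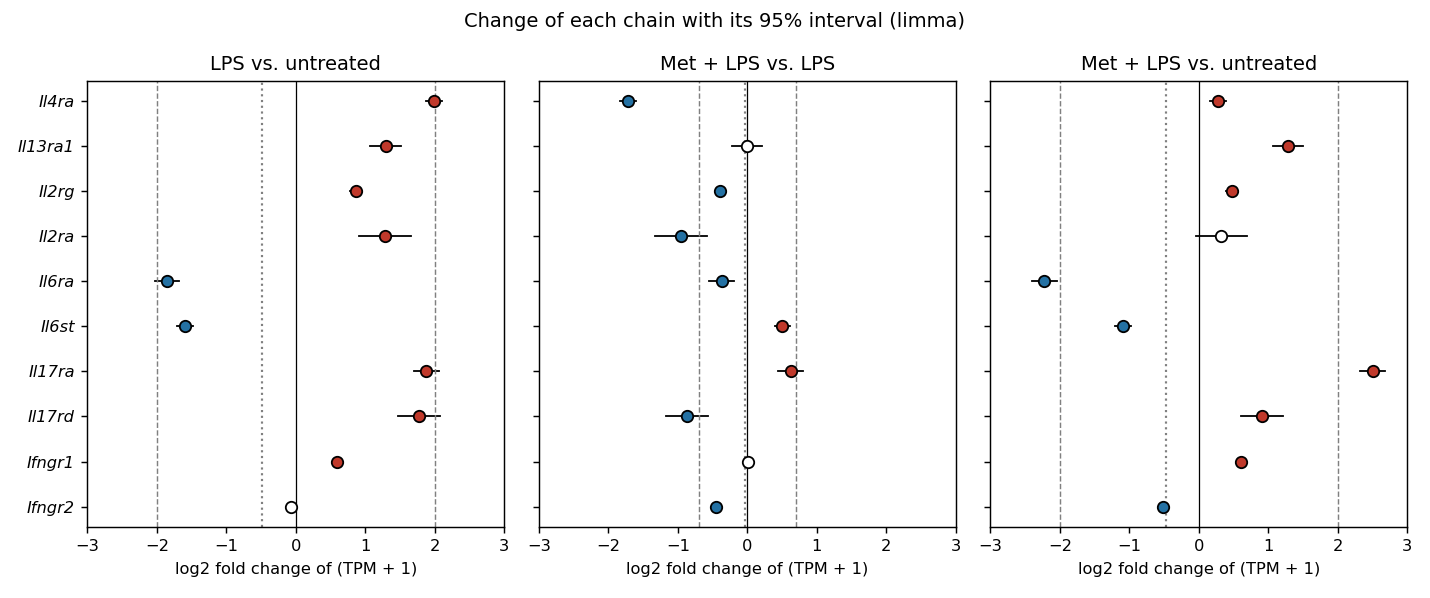
Log2 fold change on the log2(TPM + 1) scale of each of the 10 chains in the 3 comparisons, with points for the limma estimate (red higher, blue lower, white not past the test) and horizontal lines for its 95% interval. Dashed lines mark the cut-offs and dotted lines the median of all tested genes. *Il4ra* has the values 1.99 in LPS vs. untreated and -1.71 in Met + LPS vs. LPS, *Il17ra* has positive and *Il6ra* negative values in all 3 comparisons.

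Compared with untreated cells, 6 chains were higher and 3 lower in Met + LPS, and *Il2ra* did not pass the test (log2 fold change 0.33, interval -0.05 to 0.70, limma adjusted p = 0.0893). Its read level was nevertheless 8.4 times that of untreated cells (counting interval 2.59 to 43.2), and limma voom on the recovered reads gave 2.76 on the log2 scale with an adjusted p of 0.000212. All tested genes gave 16.3% higher and 58.8% lower. At a log2 fold change of at least 2, *Il17ra* was higher (2.50), as were 3.18% of all tested genes, and *Il6ra* was lower (-2.22), as were 2.16%. The median over the chains was 0.40, against -0.48 over all tested genes. Ordered by level per length, *Ifngr1* came first in each group and *Il17rd* and *Il2ra* last. Counted from the highest level, *Il4ra* had rank 6 in untreated cells, rank 2 after LPS and rank 6 again in Met + LPS. *Il6st* had the ranks 3, 6 and 5 in that order of groups, and *Il17ra* the ranks 7, 5 and 4. The 2 libraries of neighbouring chains did not overlap in any of the 3 orders.

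The genes whose pattern over the 6 libraries was nearest to that of *Il4ra*, by Euclidean distance of centred log2(TPM + 1), were *Plekhf1* (distance 0.15), *Steap4* (0.16) and *Cebpd* (0.27). *Cebpd*, a C/EBP transcription factor, stood at 8.531 and 9.39 TPM in untreated, 39.66 and 45.91 TPM in LPS, and 13.07 and 13.63 TPM in Met + LPS libraries. Nearest to *Il17rd* were *Cdc14a* (0.11), *Gpd2* (0.13) and *Spata13* (0.17). For *Il2ra* they were *Susd6* (0.15), *Kremen1* (0.15) and *Irf8* (0.19), the last of which is an interferon regulatory factor. The log2(TPM + 1) scale understates changes of low genes, so that near genes can differ widely in fold change. With LPS *Il2ra* rose 43.0-fold by TPM, but *Susd6* only from 100.1 and 107.3 to 246.0 and 247.8 TPM. *Il4ra* rose 4.05-fold, but *Steap4* from 0.04169 and 0 to 2.706 and 3.301 TPM. These are descriptions over 6 libraries that share their groups.

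Of 15 other chains of the same receptor families, 7 were tested, of which 1 rose and 4 fell with LPS, and 3 rose and 2 fell in Met + LPS vs. LPS. Over all tested genes the shares were 16.2% higher and 60.1% lower with LPS, and 14.5% higher and 18.0% lower in Met + LPS vs. LPS, so that the counts with LPS are near those of all genes. The medians of the list were -0.76 and -0.09, against -0.48 and -0.03 over all tested genes. *Il15ra*, the IL-15 receptor α chain, rose from 1.982 and 2.826 TPM in untreated to 44.56 and 44.72 TPM in LPS libraries (log2 fold change 3.76, limma adjusted p = 3.73e-07). *Il7r*, which pairs with the common γ chain, stood at 355.3 and 334.5 TPM in untreated, 140.4 and 133.2 TPM in LPS, and 377.0 and 339.5 TPM in Met + LPS libraries, a log2 change of 1.38 between the latter groups (limma adjusted p = 1.9e-05). Its Met + LPS libraries overlapped those of untreated cells. *Lifr*, the leukaemia inhibitory factor chain that pairs with gp130, fell to 0.6629 and 0.7444 TPM in Met + LPS from 1.926 and 1.895 TPM in LPS libraries (log2 fold change -0.77, limma adjusted p = 0.00173). The IL-2 receptor β chain *Il2rb*, which the signalling receptor for IL-2 needs, had 0 to 2 reads in each library. In Met + LPS vs. LPS 1 chain of the list rose without untreated library 1 or 2, LPS library 1 or Met + LPS library 1, and 0 fell without LPS library 2 or Met + LPS library 1. Rescaling by the median ratio left 2 chains that fell with LPS.

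Among 18 ligands, 9 were tested, of which 5 rose and 3 fell with LPS, and 3 rose and 1 fell in Met + LPS vs. LPS. Fewer ligands rose in the latter comparison when any library was left out, and more fell without untreated library 1 or 2. Of all tested genes 16.2% rose and 60.1% fell in the first comparison, and 14.5% rose and 18.0% fell in the second, so that 1 of 9 lower is near the latter share. The list medians were 1.58 and 0.17. *Il6*, *Lif* and *Clcf1* reached 1 TPM in stimulated libraries only, *Il2* in Met + LPS libraries only and *Il17c* in untreated libraries only. These ligands entered the test through the groups where they were high, which limits the counts of the list. *Il6* went from 0.1625 and 0.2875 TPM in untreated to 181.5 and 171.8 TPM in LPS and 190.1 and 208.2 TPM in Met + LPS libraries, and the latter step did not pass the test (log2 fold change 0.17, limma adjusted p = 0.0889). *Il27* (8.12) and *Il15* (3.72) also rose past the cut-offs with LPS. *Il15* was then lower in Met + LPS, at 201.2 and 217.6 TPM against 373.4 and 383.2 TPM (log2 fold change -0.85, limma adjusted p = 4.24e-05). The gp130 ligands *Lif* and *Osm* were higher in Met + LPS. *Lif* stood at 2.386 and 2.205 TPM in LPS and at 13.41 and 13.45 TPM in Met + LPS libraries (log2 fold change 2.13, limma adjusted p = 1.96e-05), and *Osm* at 4.51 and 3.8 TPM and then 14.38 and 14.02 TPM (1.56, limma adjusted p = 3.5e-05). *Ifng*, *Il17a*, *Il17f* and *Il25* were listed at 0 in all 6 libraries, where 3 reads of *Ifng* would have been 0.262 to 0.323 TPM.

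All 9 Janus kinases and STATs were tested. With LPS 6 rose and 2 fell, or 8 and 0 under median-ratio scaling, and in Met + LPS vs. LPS 8 fell and none rose. The shares of all tested genes were 16.2% higher and 60.1% lower with LPS, and 14.5% higher and 18.0% lower in Met + LPS vs. LPS. The median log2 changes of the list were 0.52 and -0.46. *Jak2* rose from 28.26 and 28.25 to 567.9 and 550.8 TPM with LPS (log2 fold change 4.26, limma adjusted p = 1.7e-09). *Stat5a*, which acts downstream of the common γ chain, rose from 18.4 and 18.63 to 245.5 and 258.8 TPM and stood at 134.0 and 132.2 TPM in Met + LPS (log2 fold changes 3.70 and -0.92). *Stat3*, downstream of gp130, was also lower in Met + LPS than in LPS (-0.74, limma adjusted p = 0.000129). *Stat6*, which carries the IL-4 signal, was the 1 gene of the list that did not pass there (0.08, limma adjusted p = 0.128). The 8 calls became 4 without untreated library 1 or 2 or without Met + LPS library 1 or 2, and 5 without LPS library 2.

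All 8 genes of IL-17 receptor signalling were tested, and 6 rose and 1 fell with LPS, or 7 and 0 under median-ratio scaling, beside 16.2% and 60.1% of all tested genes. *Nfkbiz*, which encodes IκBζ, went from 15.33 and 15.63 TPM to 683.5 and 680.6 TPM (log2 fold change 5.37). In Met + LPS vs. LPS it was the 1 gene that rose, by 0.21 on the log2 scale, while 4 fell, among them *Traf3ip2*, which encodes Act1 (-0.52, limma adjusted p = 0.00376), and *Tab2* (-0.46). All tested genes gave 14.5% higher and 18.0% lower there, and the list medians were 0.84 with LPS and -0.14 in Met + LPS vs. LPS. The number that fell was 2 without LPS library 1, LPS library 2 or Met + LPS library 2, and the call of the gene that rose was lost without any 1 library other than Met + LPS library 2. Of 11 inhibitors, 10 were tested, and 5 rose and 4 fell with LPS, or 7 and 1 under that scaling, beside the same 16.2% and 60.1%. *Socs3*, the feedback inhibitor of gp130 signalling, rose from 3.184 and 2.704 TPM to 1637 and 1790 TPM (log2 fold change 8.77). In Met + LPS vs. LPS 6 inhibitors fell and none rose, beside 18.0% and 14.5% of all tested genes, and the list medians were 0.15 with LPS and -0.48 here. *Socs1*, which inhibits Janus kinases, had a log2 fold change of -0.81 here and 5.38 with LPS, and *Cish*, a target of STAT5, of -1.01 here and 5.42 with LPS. The number that fell was 3 without Met + LPS library 2. Of 4 genes of receptor shedding, *Rhbdf2*, a partner of the protease ADAM17, rose past the cut-off with LPS (2.29), and *Rhbdf1* fell in Met + LPS vs. LPS (-0.77), a call that was lost without LPS library 1.

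Of 9 targets of IL-4 and IL-13, 7 were tested. With LPS 4 rose and 1 fell, and in Met + LPS vs. LPS 2 rose and 1 fell, with 1 that rose when any library was left out and 2 that fell without untreated library 1 or 2 or LPS library 2. With 16.2% higher and 60.1% lower among all tested genes after LPS, and 14.5% higher and 18.0% lower in Met + LPS vs. LPS, 1 of 7 lower in the latter is near the general share. The list medians were 0.54 and -0.16. The chemokine gene *Ccl24* rose from 0.3047 and 0.4312 TPM to 15.93 and 15.87 TPM with LPS and was 2.452 and 3.054 TPM in Met + LPS (log2 fold changes 3.63 and -2.18). *Pparg*, which encodes a nuclear receptor of lipid metabolism, did the opposite, from 112.5 and 110.1 TPM to 33.94 and 34.38 TPM and then 80.1 and 76.71 TPM (-1.68 and 1.17). *Ccl17* (5.23) and *Ccl22* (7.59) also rose past the cut-offs with LPS, but did not pass the test in Met + LPS vs. LPS (-0.66 and -0.35). *Egr2* did not pass with LPS (-0.355) and was higher in Met + LPS vs. LPS (0.73). *Retnla* was listed at 0 in all libraries and *Arg1* had at most 3 reads. Among 8 targets of IFN-γ, all rose with LPS, beside 16.2% of all tested genes, and 5 fell and none rose in Met + LPS vs. LPS, beside 18.0% that fell and 14.5% that rose. The list medians were 1.59 and -0.44. *Ifng* itself was listed at 0 in all libraries. Whether the changes of both target lists came through the receptors they are named for was not tested. *Cxcl9* had log2 fold changes of 7.21 and -1.30, *Gbp2* of 6.02 and -0.49 and *Irf8* of 1.28 and -0.87, while *Irf1* rose by 4.81 and then fell by 0.26 on the log2 scale. The number that fell was 3 without LPS library 2, Met + LPS library 1 or Met + LPS library 2.

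**Figure D4:**
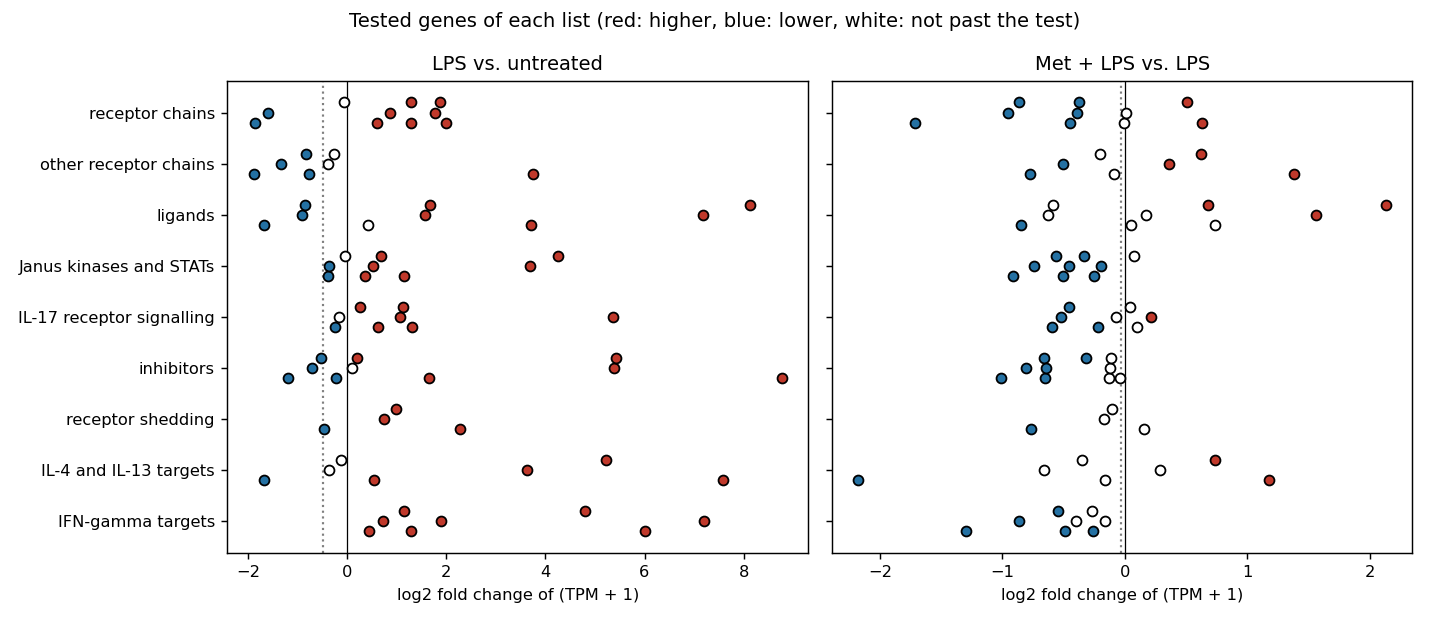
Log2 fold changes on the log2(TPM + 1) scale of the tested genes of the 10 chains and of 8 lists of related genes, with a point for each gene and a dotted line for the median of all tested genes, in LPS vs. untreated and Met + LPS vs. LPS. In Met + LPS vs. LPS the Janus kinases and STATs lie between -0.92 and 0.08 with a median of -0.46, and the chains between -1.71 and 0.63.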

How the data were processed

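Poly-A RNA of 6 libraries was sequenced single-end, aligned to GRCm38 with STAR 2.6.1d and counted per gene with featureCounts of Subread 1.6.3, per the study's methods and the submitters' processing notes. The authors deposited TPM, with replicates kept apart. How counts became TPM is not given in the sources used here, and since every library sums to the same total, changes in total RNA per cell are not visible. The authors' own test with DESeq2 was not repeated.

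The test was limma 3.58.1 (R 4.3.3) on log2(TPM + 1) of the 12755 genes that reached 1 TPM in 2 or more libraries, all 10 chains among them. A gene that was low in some groups could enter through the group where it was high, as *Il2ra*, *Il17rd* and several genes of the lists did. All libraries entered a common fit with an eBayes trend, and p-values were adjusted over all of these genes by Benjamini-Hochberg. TPM times exon length of the reference annotation gave whole reads, within 0.02 reads, for 97.11% to 97.39% of the values above 0. Alternatives were median-ratio scaling, voom on recovered reads, a minimum of 5 TPM or none, a pseudocount of 0.1, the compared groups only, a replicate block, eBayes without trend, an adjusted p under 0.05 and leaving out each library.

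The genes named are all 10 chains, members of 8 lists past the cut-offs of the study with a few others chosen after their values were seen, and the 3 genes nearest in pattern to each chain past the cut-offs. The chains and lists were chosen with earlier results of these data known. Sequences are from RefSeq. Intervals and read limits cover counting error only.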

Additional observations from a re-analysis of the deposited data

How the results depend on the processing

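Each log2 fold change of a chain was set against its value in each alternative. Direction and side of the threshold were kept in 416 of these pairs, the call was lost in 21 and gained in 2, and the sign turned in 5. In several alternatives, such as no filter, the compared groups only or the replicate block, only the p-value could move and not the estimate. The sign turned for *Ifngr2* under median-ratio scaling, to 0.4534 with LPS and to 0.0157 in Met + LPS vs. untreated, and for *Il13ra1* in Met + LPS vs. LPS, to 0.0072 under that scaling and over a range of -0.0892 to 0.0766 when libraries were left out. The scaling moves the median of all tested genes in LPS vs. untreated from -0.48 to -0.01. *Il2ra* passed the test in Met + LPS vs. untreated with eBayes without trend (adjusted p = 0.00482) and with voom.

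The number of chains past the cut-offs in LPS vs. untreated was 0, but 3 with a pseudocount of 0.1, 2 with median-ratio scaling, 3 with voom, and 0 to 1 with a library left out (1 without untreated library 2 or LPS library 1). In Met + LPS vs. LPS it was 3, but 1 with a pseudocount of 0.1, 1 with a minimum of 5 TPM, which leaves *Il2ra* and *Il17rd* untested, and 1 to 3 with a library left out, where the number of chains that fell was 3 to 5. In Met + LPS vs. untreated it was 2, but 3 with a pseudocount of 0.1, 1 with median-ratio scaling and 4 with voom. With LPS the pseudocount of 0.1 took *Il2ra* from 1.28 to 3.58 and *Il17rd* from 1.78 to 3.61. Median-ratio scaling took *Il4ra* from 1.99 to 2.51. The cause was not tested further. Over all genes, 6.08% passed the cut-offs with LPS (474 higher, 302 lower), against 11.9% with a pseudocount of 0.1 (697 higher, 815 lower), 12.5% with voom (718 higher, 878 lower) and 6.21% with median-ratio scaling (663 higher, 129 lower). Counts of the lists stayed within 1.5 times in 603 and moved further in 117 cases.

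The labels do not say whether libraries of the same replicate number belong together. The differences between replicates 1 and 2 correlated by -0.003651 to 0.02842 between groups over 12755 genes. A weak shared effect would not be seen in such values, so they do not settle whether the libraries are paired. A replicate block cannot move the estimates, such as the -1.71 of *Il4ra* in Met + LPS vs. LPS, because every group holds 1 library of each replicate number. It can move p-values, and the limma adjusted p of *Il4ra* there was 3.47e-05 with and 6.09e-06 without the block. With the block 3 chains stayed past the cut-offs there, and no call of a chain changed. Low read numbers limit the precision of *Il2ra* and *Il17rd*.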

Other observations

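Exons of 3 of the chains overlap those of another gene model. The antisense model Gm44876 shares 571 exon bases with *Il4ra* and was at 0 TPM in all libraries but LPS library 2, at 0.6135 TPM. Gm42809, antisense to *Il6ra* over 242 exon bases, did not exceed 0.1227 TPM, and Gm20489 on the strand of *Il2rg* was at 0 TPM. Without knowledge of the strand setting of the counting, reads of a chain and of its antisense partner cannot be told apart. The assignment of reads in bases that *Il2rg* shares with Gm20489 is not given either. The share of 31-base stretches found in no other gene was 91.1% for *Il4ra* and 96.8% to 100% for the chains other than *Il2rg* and *Il4ra*.

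*Il4*, a ligand of the IL-4 receptor, was itself measured, at 7.289 and 5.916 TPM in untreated, 1.285 and 1.452 TPM in LPS, and 3.019 and 2.578 TPM in Met + LPS libraries. These levels rest on 12 to 68 reads. *Il4* fell with LPS (log2 fold change -1.68, limma adjusted p = 2.33e-05) and was higher in Met + LPS than in LPS (0.68, limma adjusted p = 0.00481), in the direction opposite to *Il4ra* in both comparisons. The latter call is weak. *Il4* had the highest adjusted p of the 3 ligands that rose there, and fewer ligands rose when any library was left out. The mast cell and basophil marker *Cpa3* stood at 1.561 and 0.9202 TPM in untreated, 0.0866 and 0.1807 TPM in LPS, and 0.2616 and 0.2979 TPM in Met + LPS libraries. None of the 4 markers of these cells reached 1 TPM in 2 libraries, *Fcer1a* was at 0 in all, and their summed level was 0.92 to 1.56, 0.181 to 0.397 and 0.262 to 0.298 TPM in the 3 groups. Their part in the level of *Il4* was not tested.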
